A study of Mus musculus with 4 samples.

Results

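The regions described here are open chromatin peaks away from promoters and exons of mouse primary myoblasts that hold the AP-1 motif and lack the E box that myogenic factors prefer. A peak was a member when its centre lay in an intron or between genes, its mm9 sequence held TGAGTCA or TGACTCA on the plus strand, and it held no CAGCTG. The sequences TGAGTCA and TGACTCA are the 2 strands of 1 site, the TPA response element (TRE). By this rule 4748 of the 17865 distal peaks and 25775 peaks in all of the WT list were AP-1-only, and 458 of the 2077 distal peaks and 3836 peaks in all of the Tet2 KO list.

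Chromatin accessibility was profiled by ATAC-seq, in which a transposase cuts and tags open DNA. Satellite cells, the stem cells of muscle, had been sorted from hindlimb muscle of C57BL/6 mice, either WT or Tet2 KO, and grown for 3 days until they were MyoD-positive myoblasts. Libraries were made from 5000 cells. The Tet2 KO allele lacks an exon in every cell of the animal rather than in muscle alone, and the study used young adult male mice unless it states otherwise. Each genotype had 2 samples, but 1 peak list per genotype was analysed, so there is no replicate spread and no test between WT and Tet2 KO. The intervals below are Wilson 95% intervals and cover counting error only.

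AP-1 is a family of dimers of Jun, Fos, Atf and Maf proteins that bind the TRE. Its Fos and Jun subunits are induced by growth factors and stress through MAP kinases, and in many cell types AP-1 sites mark enhancers used in proliferating or activated cells. In muscle, Jun and Fos are active in dividing myoblasts, while MyoD and its relatives bind E boxes, CAGCTG among them, at genes of the muscle programme. Tet2 oxidises methylated cytosine at CpG sites, and the TRE itself contains no CpG.

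The TRE and its neighbouring bases in the WT AP-1-only peaks of highest fold enrichment are shown first, because these are the sites the rest of the text refers to. Each is written 5′ to 3′ on the strand that reads TGAGTCA, with the TRE nearest the summit in capitals and 10 bases on either side, and the coordinates are those of the TRE in mm9.
Heatr5a, chr12:53048546-53048552: actccctctgTGAGTCAtgcggtctag
Gm5468, chr15:25424674-25424680: gacagtggtgTGAGTCAtttactgcct
Cxcr4, chr1:130405652-130405658: agggcagagcTGAGTCAcaggagcctg
Grb10, chr11:11839777-11839783: cagtggcctcTGAGTCAtaagaatggc
Actbl2, chr13:111720023-111720029: ctgaggctagTGAGTCActtcatggga
Timp3, chr10:85634231-85634237: atctccagccTGAGTCAccctgtgatg
Actb, chr5:143682659-143682665: gtactgtgggTGAGTCActagctgctc
Chka, chr19:3833023-3833029: agaggcctccTGAGTCActtcctccct

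The next 5 sites come from the strongest WT AP-1-only peaks over which the Tet2 KO list had no peak, written in the same way. They are shown so that the bases beside the TRE can be set against those above.
Trib2, chr12:16168948-16168954: tggcaatttgTGAGTCAtcctatggag
Asap1, chr15:64445191-64445197: ctgctgaaaaTGAGTCAacaaaccacc
Atf6, chr1:172697314-172697320: ttattagttcTGAGTCAtagaggtccc
Arl4c, chr1:90589141-90589147: ctctagctggTGAGTCAggcctgaact
Sh2d4a, chr8:70681251-70681257: aagacaggtgTGAGTCAtgctggagca

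Whole peaks follow for 6 members, on the plus strand of mm9 with every TRE in capitals, to show how the motif sits in an open region. The peak in the intron of Heatr5a had the highest fold enrichment of the WT members. The peak near Otud4 was 1 of the 10 strongest in the Tet2 KO list, and the others lie near genes of AP-1 biology, cytokine signalling and DNA demethylation.
Heatr5a, chr12:53048465-53048740: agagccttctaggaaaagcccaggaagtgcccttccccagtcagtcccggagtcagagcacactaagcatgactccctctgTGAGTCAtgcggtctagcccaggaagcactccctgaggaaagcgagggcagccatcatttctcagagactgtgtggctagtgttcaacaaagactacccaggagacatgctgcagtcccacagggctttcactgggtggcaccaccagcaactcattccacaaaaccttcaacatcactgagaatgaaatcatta
Otud4, Tet2 KO list, chr8:82202933-82203186: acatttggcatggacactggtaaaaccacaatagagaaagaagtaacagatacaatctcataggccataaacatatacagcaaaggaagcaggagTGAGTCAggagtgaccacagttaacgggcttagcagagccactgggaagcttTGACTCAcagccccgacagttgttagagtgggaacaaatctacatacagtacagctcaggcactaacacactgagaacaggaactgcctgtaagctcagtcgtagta
Fos, chr12:86860589-86860806: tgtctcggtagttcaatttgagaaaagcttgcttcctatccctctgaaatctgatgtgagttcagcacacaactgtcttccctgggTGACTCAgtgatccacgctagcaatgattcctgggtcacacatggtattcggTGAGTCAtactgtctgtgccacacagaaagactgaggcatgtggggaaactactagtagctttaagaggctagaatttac
Plaur, chr7:25234254-25234464: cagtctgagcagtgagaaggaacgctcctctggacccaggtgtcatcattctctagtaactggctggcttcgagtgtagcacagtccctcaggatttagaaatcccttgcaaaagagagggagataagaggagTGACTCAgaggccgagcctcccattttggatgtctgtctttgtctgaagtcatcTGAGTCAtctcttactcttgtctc
Il6, chr5:30277466-30277633: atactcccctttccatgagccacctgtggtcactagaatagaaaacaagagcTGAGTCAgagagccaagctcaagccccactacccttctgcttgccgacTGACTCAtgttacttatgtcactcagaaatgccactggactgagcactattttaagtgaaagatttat
Tet2, chr3:133263916-133264096: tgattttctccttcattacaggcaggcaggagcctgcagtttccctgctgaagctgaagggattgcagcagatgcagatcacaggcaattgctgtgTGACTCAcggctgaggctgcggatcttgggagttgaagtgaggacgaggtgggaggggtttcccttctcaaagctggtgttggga

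Values rest on the summit height that MACS2, the authors' peak caller, saw in each library. The number of fragments over each summit was recovered from the deposited fold and p columns, and the total number of fragments is unknown. The fold adds 1 to both the summit and the local background before dividing. It is thus smaller than their plain ratio, the more so where the background is low. Genome-wide background stood at 0.649 fragments for WT and at 1.38 for Tet2 KO, 2.13 times higher. The smallest summits listed had 6 and 7 fragments. The 2 lists ended at unlike values. The lowest −log10 q was 2.18 in WT and 0.863 in Tet2 KO, and the lowest −log10 p 4.7 and 4.01. In the Tet2 KO list 55 peaks had a −log10 q under 2, and in the WT list 0. Both lists skip peak numbers (9707 of 35482 in WT and 4403 of 8239 in Tet2 KO), so a peak missing from a list may have been called and not listed. Of 6 myoblast markers, Des and Myod1 had a promoter peak in both lists, while Pax7, Myf5, Itga7 and Cdh15 had none. Of 15 markers of endothelial, immune and fibroadipogenic cells, Pecam1 had a promoter peak in the WT list and none had one in the Tet2 KO list. AP-1-only members lay at markers of both kinds. In WT there were 2 at the myoblast markers Cdh15 and Myod1, 3 at the endothelial Cdh5 and Kdr, and 2 at the fibroadipogenic Thy1. In Tet2 KO there was 1, at Kdr.

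AP-1-only peaks were a slightly smaller share of the distal peaks in the Tet2 KO list. They made up 26.6% of distal peaks in WT (25.9 to 27.2%) and 22.1% in Tet2 KO (20.3 to 23.9%). There were 10.4 WT members for each Tet2 KO member, against 7.71 for distal peaks with both motifs, 9.37 for those with CAGCTG alone, 7.37 for those with neither, and 4.23 at promoters. With 1 list per genotype these ratios cannot be told apart from a difference between libraries or between the cutoffs of the lists.

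The TRE was concentrated under the summits of distal peaks and was rare next to them. Any TRE, with or without CAGCTG, was found in 41.1% of distal WT peaks (40.3 to 41.8%) and in 38.2% of distal Tet2 KO peaks. In windows of the same length 2000 bp to either side, 4.11% held a TRE in WT. A TRE without CAGCTG was found in 26.6% of distal WT peaks and in 3.53% of those windows. Promoter peaks were different: 7.44% held a TRE, with 4.07% in their windows. Over all distal WT peaks the density of TREs was 3.27 per kb within 25 bp of the summit, fell to 0.441 per kb between 100 and 200 bp and was 0.202 per kb between 700 and 1000 bp.

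**Figure D1:**
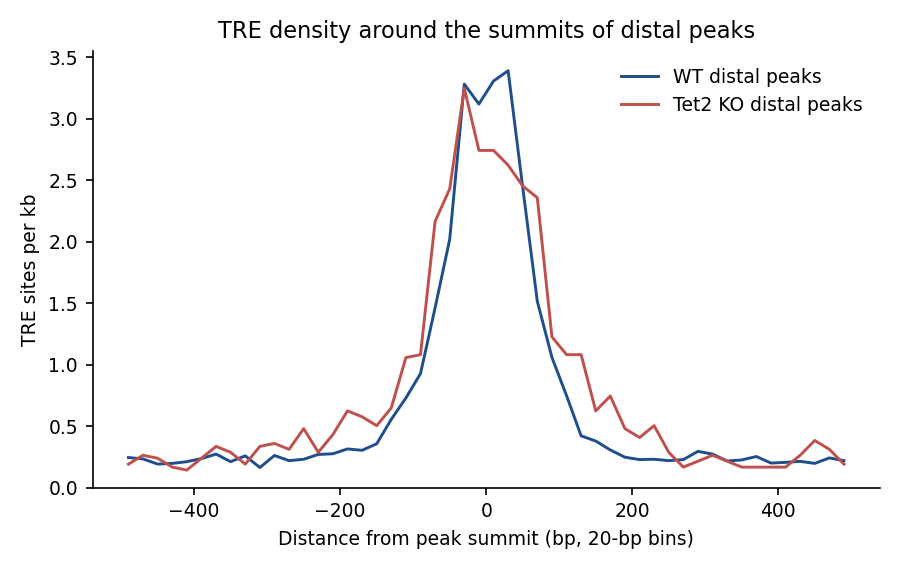
TRE sites per kb (vertical axis) in 20-bp bins by distance in bp from the peak summit (horizontal axis), for all distal peaks of the WT and the Tet2 KO list. In both lists the density peaks near the summit. Within 25 bp of WT summits it was 3.27 per kb.

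Most members held a single TRE. In the WT list 3900 of 4748 (82.1%) had 1 site, 765 had 2, 72 had 3, 9 had 4 and 2 had 5. Of the Tet2 KO members 24.7% (20.9 to 28.8%) had 2 or more sites, compared with 17.9% (16.8 to 19.0%) of the WT members. Where a WT member had more than 1 TRE, neighbouring sites were a median of 55.5 bp apart. The peak near Fos, shown above, is one with 2 sites.

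The TRE nearest the summit lay a median of 30 bp from it in WT members (quartiles 15 and 53 bp) and 34 bp in Tet2 KO members. It was within 25 bp of the summit in 43.1% of WT members (41.7 to 44.5%) and 36.9% of Tet2 KO members (32.6 to 41.4%), and within 50 bp in 72.6% and 69.2%. The rule that chose the members required a TRE inside the peak, and WT members had a median width of 206 bp. The rule thus bounded these distances, although the place of the TRE within the peak was not part of it.

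The bases beside the TRE in members differed from those beside TREs 500 to 1000 bp from distal WT summits. Read on the TGAGTCA strand, a T stood directly before the site in 8.03% of the 5692 TREs of WT members and an A directly after it in 6.22%. At the 3637 TREs lying 500 to 1000 bp from distal WT summits the shares were 20.8% and 16.5%. Either of these 2 flanking bases was found at 13.8% of TREs in WT members (13.0 to 14.7%). In Tet2 KO members it was 15.2% (12.5 to 18.3%), and 500 to 1000 bp from the summits 32.8% (31.3 to 34.4%). The combination of A or G before and C or T after was found at 39.8% of TREs in WT members (38.5 to 41.1%). It was found at 34.1% in Tet2 KO members (30.4 to 38.0%) and at 22.5% of TREs 500 to 1000 bp from the summits. The 8 sites printed first have no T before the TRE and no A after it. Asap1, among those without a Tet2 KO peak, has an A on both sides.

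Other motifs were also more frequent in the members than beside them. They were searched on both strands over the whole peak and in windows of the same length 2000 bp away. RUNX (TGTGGT) was found in 32.5% of WT members and 16.9% of windows, and TEAD (GGAATG) in 20.9% and 11.6%. RUNX factors and the TEAD partners of YAP are both expressed in muscle progenitors. Distal WT peaks without a TRE held both motifs at least as often, with RUNX in 33.6% of those with CAGCTG alone and 34.0% of those with neither, and TEAD in 22.7% and 22.5%. CEBP (TTGCNNAA) was found in 476 members and 8.5% of windows, the CCAAT box (GCCAAT) in 7.6% of members and 6.08% of windows, the GC box (GGGCGG) in 5.31% and 3.07%, and ETS (CCGGAA) in 3.5% and 2.01%. MEF2 and SRF, regulators of muscle and actin genes, were found in 2.93% and 1.99%, and 1.5% and 1.02%. The cAMP response element TGACGTCA, to which some AP-1 dimers bind, was found in 0.316% of members (15 peaks) and 0.126% of windows. NFI was found in 3 members. Distal WT peaks without a TRE held the GC box more often than members, in 9.81% with CAGCTG alone and 12.0% with neither. In the same order ETS had 4.92% and 5.21%, MEF2 3.48% and 3.51%, and the cAMP response element 0.856% and 0.999%. The CCAAT box had 7.7% and 9.57%, SRF 1.49% and 1.65%, and CEBP 498 of 5024 and 552 of 5504 peaks. Leaving out the rare NFI, none of the motifs named in this paragraph was clearly more frequent in members than in these peaks.

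E boxes other than CAGCTG were not depleted as a group. CANNTG was found in 70.3% of WT members and 67.5% of windows, although CANNTG includes the excluded CAGCTG, which 9.98% of the windows held. CAGATG was found in 26.6% and 16.4%. CAGGTG went the other way, with 11.2% in members and 14.9% in windows. For CAGATG the share in members (25.3 to 27.8%) was also above that of distal WT peaks without a TRE. These had 24.0% with CAGCTG alone (22.8 to 25.2%) and 21.7% with neither (20.6 to 22.8%). Distal WT peaks with both motifs had 28.5% (26.8 to 30.3%). The 3 E boxes named by their full letters are forms of CANNTG and are counted within it. None of these matches shows that a factor was bound.

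**Figure D2:**
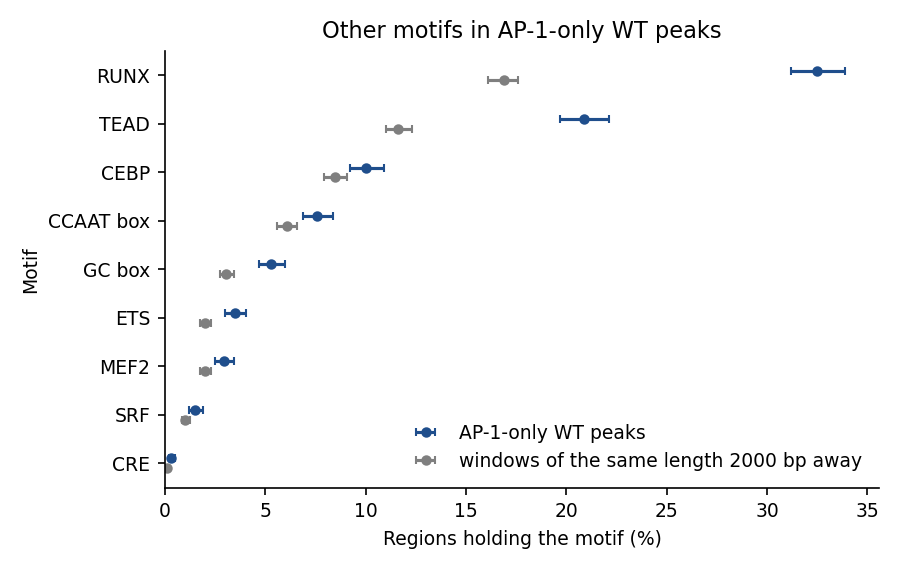
Share of regions holding each motif in percent (horizontal axis) for AP-1-only WT peaks and for windows of the same length 2000 bp to either side. Bars are Wilson 95% intervals. RUNX stands farthest apart, with 32.5% in the peaks and 16.9% in the windows.

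Members were spread over introns and intergenic DNA. Of the WT members 2463 (51.9%) were intronic and 2285 intergenic, and of the Tet2 KO members 238 (52.0%) were intronic. The median distance to the nearest start of a protein-coding gene was 32354 bp in WT, against 27536 bp for the other distal WT peaks. Of the WT members 10.5% lay within 5 kb of a start, compared with 14.0% of the other distal peaks, and 20.4% and 17.1% lay more than 100 kb away. The number of WT members per Tet2 KO member ranged from 6.47 on chromosome 8 to 16.8 on chromosome 4 among the autosomes, and chromosome X had 54 and 2.

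WT members had a median fold enrichment of 8.25 over local background (quartiles 6.67 and 10.1) and a median of 16 fragments at the summit. Tet2 KO members had a median fold enrichment of 5.75 (5.03 to 6.71) and 15 fragments. The summits were of similar height in fragments, and the fold values stood over a background that was higher in the Tet2 KO library. Median widths were 206 bp and 196 bp. Whether fewer cells had a site open or each site was less open cannot be told apart in such bulk libraries.

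Few WT members had a peak in the Tet2 KO list, and nearly every Tet2 KO member had one in the WT list. A Tet2 KO peak overlapped 458 WT members by at least 1 bp, or 9.65% (8.84 to 10.5%), and 4290 had none. Over all WT peaks the share was 14.1%, and over distal WT peaks 11.0%, so the members were close to the distal background. In the other direction 453 of the 458 Tet2 KO members (98.9%, 97.5 to 99.5%) overlapped a WT peak, where the share over all Tet2 KO peaks was 96.8%. That 458 is both the number of overlapped WT members and the number of Tet2 KO members is a coincidence.

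The motif class changed between lists for some overlapping pairs. Over the 458 WT members the Tet2 KO peak was AP-1-only in 370, held neither motif in 81, held both in 4 and was a promoter peak in 3. The TRE nearest the WT summit lay inside the Tet2 KO peak in 366 of these (79.9%). Over the 453 Tet2 KO members the WT peak was AP-1-only in 372, held both motifs in 80 and had its centre in an exon in 1. All 453 of these WT peaks held a TRE. Overlapped WT members had a median width of 318 bp and the other WT members 199 bp, and the part of width in these class changes was not tested.

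Overlap rose steeply with the strength of the WT peak. With all distal WT peaks split by fold enrichment into 5 equal groups, with bounds at 6.12, 7.28, 8.5 and 10.3, the share of members with a Tet2 KO peak was 0.397%, 1.69%, 5.06%, 8.67% and 27.8%. For the other distal peaks it was 1.7%, 2.39%, 5.67%, 14.2% and 35.7%. In the strongest group the interval of the members (25.2 to 30.5%) lay below those of peaks with both motifs (40.3%, 37.1 to 43.5%) and of peaks with CAGCTG alone (33.5%, 30.6 to 36.6%), and overlapped that of peaks with neither (32.6%). Members had a median fold enrichment of 8.25 and the other distal peaks 7.77, and weighting the others to the members' fold enrichment raised their share from 11.5% to 13.2%.

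**Figure D3:**
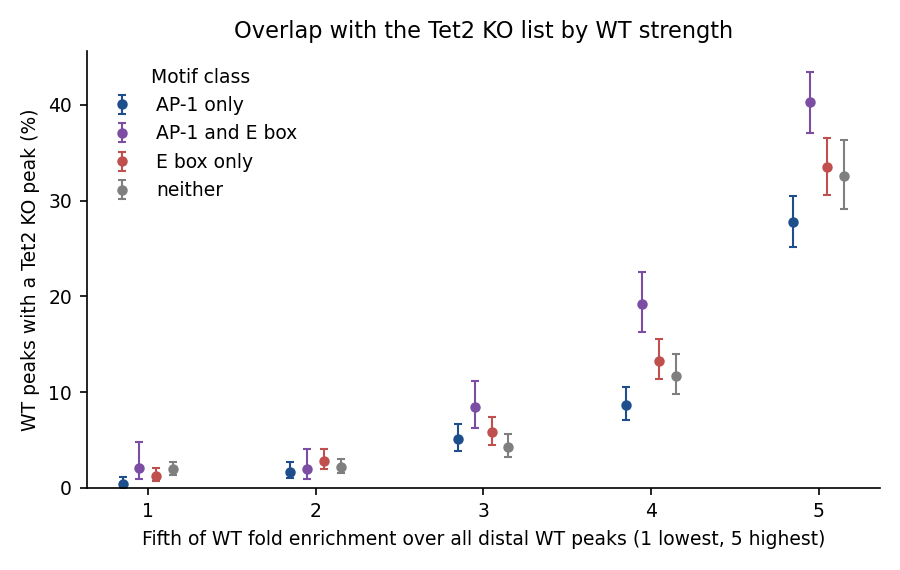
Share of WT distal peaks with an overlapping Tet2 KO peak in percent (vertical axis) by WT fold enrichment in 5 groups (horizontal axis), for the 4 motif classes, with Wilson 95% intervals. AP-1-only peaks rise from 0.397% in the lowest group to 27.8% in the highest, the lowest of the 4 classes there.

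The order of the classes depended on how much sequence was read. Searched over whole peaks, the overlapped share was 9.65% for AP-1-only (8.84 to 10.5%) and 20.5% for both motifs (19.0 to 22.1%). It was 11.0% for CAGCTG alone (10.2 to 11.9%) and lowest for neither, at 7.58% (6.91 to 8.31%). Motifs searched over whole peaks favour wide peaks, and wide peaks overlapped more often whatever their motif. In 5 groups from narrow to wide, members had 0.233%, 0.86%, 4.81%, 13.1% and 33.5%, and the other distal peaks 1.24%, 1.82%, 3.2%, 12.0% and 37.5%. The members were thus lower in the narrow groups and the widest, and higher in the middle group and the next widest. With TRE and CAGCTG searched only within 100 bp of the summit, the share was 10.1% for AP-1-only, 10.9% for CAGCTG alone and 10.7% for neither. Peaks with both motifs in that window had 13.9% (12.5 to 15.4%). The part of peak width in the class differences beyond these values was not tested.

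GC content moved with overlap as well. WT members with a Tet2 KO peak had a median GC content of 50.6%, the others 48.6%, and all Tet2 KO members 51.8%. By GC content the share of WT members overlapped was 5.2% up to 45% GC, 8.43% from 45 to 50%, 12.6% from 50 to 55% and 14.5% above. Within the strongest of the 5 groups by fold enrichment it was 17.5%, 24.0%, 34.2% and 42.4% for members, and 24.1%, 31.9%, 38.2% and 44.4% for the other distal peaks. The members were below the others in each of the 4 GC groups there, and the intervals were apart only from 45 to 50% GC, at 20.2 to 28.3% and 28.7 to 35.3%. The part of GC content in the overlap was not tested.

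CpG sites, the substrate of Tet2, were few in the members. The median WT member had 2 CpG sites, and 763 (16.1%) had none, compared with 11.9% of the other distal peaks. Counted over the whole peak, overlap with the Tet2 KO list rose with the number of CpG sites, from 3.28% of members with none to 6.48% with 1, 8.47% with 2 to 3, 14.6% with 4 to 7 and 27.4% with 8 or more. Counted within 100 bp of the summit, the same 5 groups had 8.38%, 9.34%, 10.9%, 8.34% and 12.5%, with overlapping intervals. Among the widest of the 5 width groups, still within 100 bp of the summit, these shares were 39.0%, 33.5%, 34.1%, 29.9% and 30.0%. With the window fixed there was thus no steady rise with CpG number. Members with a CpG within 10 bp of a TRE had 11.3% (9.77 to 13.1%), and those with the nearest CpG more than 100 bp away 8.4% (6.48 to 10.8%). These intervals overlap. Where a member had more than 1 TRE the smallest distance was taken, and this split was not repeated by width.

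**Figure D4:**
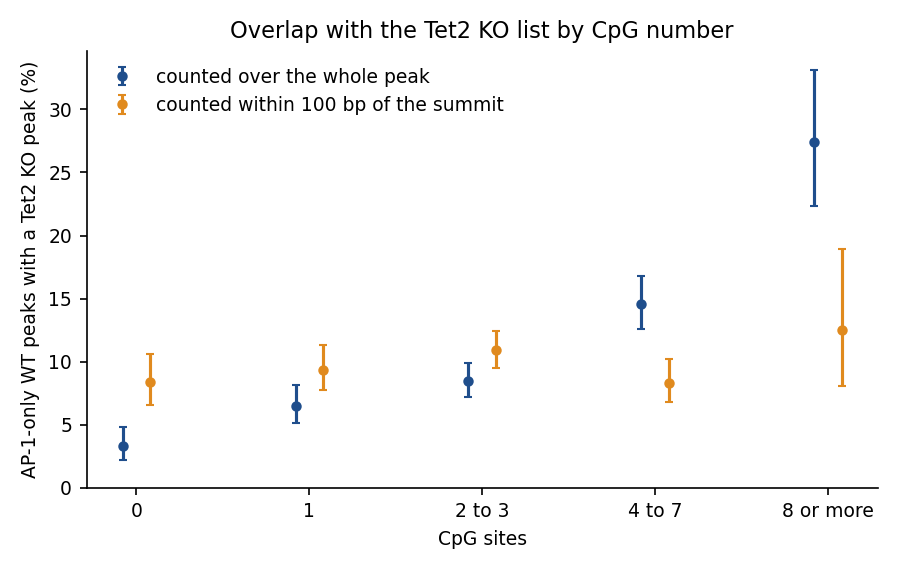
Share of AP-1-only WT peaks with an overlapping Tet2 KO peak in percent (vertical axis) by number of CpG sites (horizontal axis), counted over the whole peak or within 100 bp of the summit, with Wilson 95% intervals. The whole-peak shares rise from 3.28% to 27.4%, while the fixed-window shares stay between 8.34% and 12.5%.

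Overlap by number of TREs also depended on where they were counted. It was 8.05% with 1 TRE in the peak (7.24 to 8.95%), 15.7% with 2 and 28.9% with 3 or more (20.3 to 39.4%). Within 100 bp of the summit it was 7.98% with 1 TRE (7.15 to 8.9%) and 13.5% with 2 or more (11.2 to 16.3%), in peaks with median widths of 199 and 205 bp. The 342 members whose TREs all lay farther out had the highest share, 19.6% (15.7 to 24.1%), and a median width of 299 bp, so the shares in that window did not rise throughout with TRE number. In the widest of the 5 width groups the shares by number of TREs in the peak were 30.8%, 39.3% and 48.6%, and in the next widest 11.0%, 19.9% and 30.0%. In the middle group they were 4.72%, 5.1% and 6.67%, with overlapping intervals, and in the 2 narrow groups at most 3 members of any TRE number above 1 were overlapped. Members with 2 sites had a median fold enrichment of 9.09, against 7.96 with 1.

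Distance from TRE to summit was compared over all members and among the widest. The share overlapped rose from 6.16% with the TRE within 10 bp to 19.3% beyond 100 bp. Among the widest peaks the 5 distance groups had 32.3%, 35.2%, 31.8%, 36.0% and 31.6%, with overlapping intervals. For the other motifs searched over the whole peak, members with RUNX had 13.2% and those without 7.93%, and members with TEAD 14.0% and 8.49%. Searched within 100 bp of the summit, RUNX had 9.9% against 9.54% and TEAD 9.88% against 9.59%. The GC box kept a gap, with 15.1% (10.9 to 20.4%) against 9.38% (8.57 to 10.3%).

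In the 458 overlapping pairs the WT summit was the higher in nearly every pair. The median was 27.5 fragments in WT (quartiles 23 and 32) and 15 in Tet2 KO (12 and 17). Raw fragments were higher in WT in 449 pairs and fold enrichment in 456. Divided by each library's background, the heights were 42.4 and 10.8, a median ratio of 3.88 (3.3 to 4.62), higher in WT in all 458 pairs. Other distal pairs had a median ratio of 3.96 and promoter pairs 3.7, so members stood with the rest of the list. The summits of a pair lay a median of 32 bp apart.

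**Figure D5:**
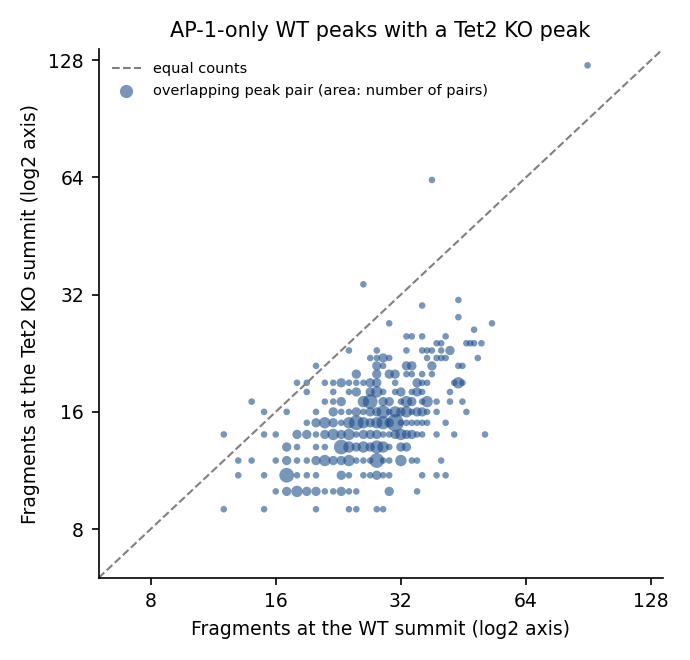
Fragments at the summit of each AP-1-only WT peak (horizontal log2 axis) and of the Tet2 KO peak over it (vertical log2 axis). Shown are the 370 of 458 pairs in which the Tet2 KO peak was AP-1-only too. Point area gives the number of pairs at that position. Nearly all points lie below the dashed line of equal counts. Over all 458 pairs, plotted or not, 449 had more fragments in WT.

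All 10 of the strongest WT members had an AP-1-only peak in the Tet2 KO list. The peak in an intron of Heatr5a had a fold enrichment of 20.9 with 46 fragments in WT, and 7.05 with 16 in Tet2 KO. A peak 83221 bp downstream of the start of Cxcr4, a chemokine receptor, had 19.2 with 53 fragments in WT and 9.29 with 27 in Tet2 KO. It was the only site among the 10 strongest of both lists.

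An intron of Grb10, an adaptor of insulin and IGF receptors, had 19.0 in WT and 7.12 in Tet2 KO. The peak 14195 bp upstream of Actb, which encodes cytoplasmic actin, had 17.2 with 50 fragments and 7.75 with 24.

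A site in an intron of Syn3 lay 128957 bp upstream of Timp3, an inhibitor of matrix proteases, with a fold enrichment of 17.5 in WT and 5.82 in Tet2 KO. The peaks nearest Gm5468, Actbl2, Zfp438 and Chka had fold enrichments between 17.1 and 19.8 in WT and between 4.69 and 8.81 in Tet2 KO. In each of the 10 the fold enrichment was lower in Tet2 KO.

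The strongest Tet2 KO members were strong in WT too. The peak nearest Gdi2, which keeps Rab proteins soluble, had the highest fold enrichment, 10.8 with 34 fragments in Tet2 KO and 13.2 with 26 in WT, so its raw summit was the higher in Tet2 KO. The peak nearest Nr2f1, an orphan nuclear receptor, had 10.1 and 14.8, and that nearest Otud4, a deubiquitinase, 9.65 and 15.4. An intron of Lrrk2, a kinase, had 9.61 and 15.0, and one of Ppp1r12a, a subunit of myosin phosphatase, 9.23 and 15.2. The peaks nearest 2700029M09Rik, Zfp827, D730045B01Rik and Gm17350 had between 9.21 and 10.2 in Tet2 KO and between 10.4 and 15.1 in WT.

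Some strong WT members had no peak in the Tet2 KO list. The peak nearest Trib2, a pseudokinase, had a fold enrichment of 16.9 with 32 fragments. Those nearest Asap1, Atf6, Arl4c and Sh2d4a followed with 16.6, 16.4, 16.3 and 16.2 and with 29 to 31 fragments. Atf6 is a sensor of unfolded protein in the endoplasmic reticulum and its peak is intronic, while Asap1 and Arl4c act in Arf signalling. Their summits were above the median of 27.5 fragments seen for members with a Tet2 KO peak.

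The 5 Tet2 KO members without a WT peak lay nearest Sp140, Gm15319, Gm4694, Esm1 and Pls3, with fold enrichments of 6.67, 5.31, 4.71, 4.61 and 4.2 and between 9 and 16 fragments. All but the site in Sp140 had a lower fold enrichment than the median Tet2 KO member. The peak assigned to Esm1, an endothelial secreted proteoglycan, is in an intron of Gzmk. A further 2 sites, picked out after their values were seen, had a very high local background in both lists. At the site nearest Pgk2 (chr17:39984507-39984939) the background reached 42.4 fragments in the WT list and 63.9 in the other. At the site in Sfi1 it was 12.9 and 28.5, against medians over members of 0.94 and 1.69. Their fold enrichments were 2.1 and 1.93, and 2.81 and 2.17.

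The WT members were spread over many genes. Of the 4748, 4039 could be assigned to a gene, by the nearest protein-coding start within 100000 bp or the host gene, and these fell to 3032 genes, of which 2303 had 1, 532 had 2 and 197 had 3 or more. The Tet2 KO members fell to 381 genes. Ank3, an adaptor of the membrane skeleton, Pde4d, a cAMP phosphodiesterase, and Irf2bp2, a transcriptional cofactor, had 6 WT members each. Of these 6, Irf2bp2 had 3 with a Tet2 KO peak, and Ank3 and Pde4d had none. Gene length and the number of distal peaks differ between these genes and were not corrected for, with 11 distal WT peaks at Ank3, 11 at Irf2bp2 and 21 at Pde4d.

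Members near genes of the AP-1 family itself were found in the WT list only. Of 17 genes, 6 had a member (Atf3, Fos, Fosb, Jdp2, Jun and Maf), 7 members in all, and none of the 7 had a Tet2 KO peak. With 7 members a share of 0 allows up to 35.4%, so the list does not stand apart from the 9.65% of all members. The peak 45858 bp downstream of the start of Fos had a fold enrichment of 12.7 with 26 fragments and 2 TREs. Peaks upstream of Maf and of Jun had 11.4 with 19 and 9.68 with 26.

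Genes of the MAP kinase and growth factor response, which act before and after AP-1, had 27 WT members at 17 of 30 genes, and 6 had a Tet2 KO peak (22.2%, 10.6 to 40.8%). Other distal peaks of the same genes had 7.25% (3.13 to 15.9%), an interval that overlaps that of the members. The peak upstream of Plaur, the urokinase receptor, had 13.1 with 26 fragments in WT and no Tet2 KO peak. Of the 2 WT members at Plaur the other had a Tet2 KO peak, and 1 Tet2 KO member lay at this gene. Peaks near Egr3, an early growth response factor, and Fgfr1, a receptor for fibroblast growth factors, had 12.7 and 12.4 in WT and 5.08 and 7.27 in Tet2 KO.

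Genes of the extracellular matrix and its proteases had 30 WT members at 18 of 40 genes, 4 of them (13.3%) with a Tet2 KO peak. Downstream of the start of Thbs2, a matricellular protein, the fold enrichment was 13.8 in WT and 7.13 in Tet2 KO. Col6a3, a chain of collagen VI, had 13.4 and 8.11, and an intron of Loxl2, a collagen crosslinker, 12.3 with 44 fragments and 7.6 with 31.

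Genes of integrins, focal adhesions and actin had 39 members at 20 of 40 genes, 7 of them (17.9%) overlapped. An intron of Myh9, non-muscle myosin, had 13.6 in WT and 5.56 in Tet2 KO. The peak upstream of Itga11, a collagen receptor, had 13.5 and 5.31. The peak upstream of Vcl, which encodes vinculin, had 12.7 and no Tet2 KO peak.

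Myogenic regulators and satellite cell genes had 21 WT members at 13 of 29 genes, and 4 were overlapped (19.0%). An intronic peak of Runx1, a transcription factor of proliferating myoblasts, had 11.8 with 48 fragments in WT and 7.83 with 26 in Tet2 KO. A peak upstream of Runx1 had 10.3 with 26 fragments and one upstream of Mef2a, a muscle transcription factor, 13.3 with 25, both without a Tet2 KO peak. AP-1-only peaks were 22.1% of the distal WT peaks of this list, against 26.6% over all.

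Genes of differentiation, fusion and the sarcomere had 13 members at 8 of 38 genes, and 1 was overlapped. That was an intronic peak of Myom1, a protein of the M band, with 10.9 in WT, over which the Tet2 KO peak had 5.54 and held no TRE. Introns of Tnnt2, a troponin, and Myo18b, a muscle myosin, had 10.7 and 10.3 with 22 fragments each and no Tet2 KO peak. The overlapped share was 7.69% (1.37 to 33.3%), an interval that holds the 9.65% of all WT members. No Tet2 KO member lay at a gene of this list. The same was true of the lists of AP-1 genes, of cytokine and stress genes and of TET and DNA methyltransferase genes.

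The TEAD and YAP pathway had 17 members at 10 of 17 annotated genes, 3 of them overlapped (17.6%). An intron of Tead1 had 13.9 with 32 fragments in WT and 4.61 with 10 in Tet2 KO, in a peak without a TRE. Peaks at Amotl1, which binds YAP, and upstream of Ankrd1, a YAP target, had 12.3 and 11.6 and no Tet2 KO peak.

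Cytokine and stress genes had 13 members at 10 of 20 genes, with 1 overlapped. The peaks upstream of the cytokine genes Cxcl1 and Il6 had 11.6 and 11.5, and an intron of Osmr, the oncostatin M receptor, 11.3, all 3 without a Tet2 KO peak. TET and DNA methyltransferase genes had 6 members at Tet1, Tet2 and Dnmt3a, none overlapped. Both peaks named for Tet2 lay upstream of it, with 9.22 and 9.14, and an intron of Dnmt3a had 9.09 with 22 fragments. The intervals of 8 of the 9 lists contained 9.65%, the share of all WT members, the exception being the MAP kinase list. Other distal peaks had 17.4% at the AP-1 genes, 11.4% at matrix, 15.3% at integrin and 20.3% at myogenic regulator genes. At differentiation genes they had 9.8%, at the TEAD and YAP pathway 14.0%, at cytokine genes 9.09% and at TET genes 0%. On each list their interval overlapped that of the members. The lists were chosen with earlier results known, and these counts are a description.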

How the data were processed

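Per the study's methods, reads were trimmed and aligned to mm9 with Bowtie2, alignments of low mapping quality and duplicates were dropped, and peaks were called with MACS2 (versions not given in the sources used here). Each deposited list names its genotype and 1 library, but no replicate. The authors deposited for each peak a score, a fold ratio, −log10 p, −log10 q and the summit's offset. The fold ratio sets the summit over the local background, each with 1 added. The score was 10 times −log10 q in the WT list and 10 times −log10 p in the Tet2 KO list and was not used.

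From fold and −log10 p, the whole number of fragments at the summit and the local background were solved by the Poisson formula of MACS2, to within 0.001, which was tested on simulated data. Peaks were placed by their centres on GENCODE M1 (promoter: 1000 bp upstream to 100 bp downstream of a start), and motifs were searched in the mm9 sequence, with Python 3.11.15, numpy 2.4.6, pandas 2.3.3 and scipy 1.17.1. Overlap means at least 1 bp. No test was run between genotypes. Named members are the 10 of highest fold in each list, the 5 strongest WT members without a Tet2 KO peak, the Tet2 KO members without a WT peak, and the 3 strongest WT members of each gene list. The members, lists and rule were chosen with earlier results of these data known. Ajuba was not matched in the annotation. The mRNA and methylation data of the study were not used here, and no sequence is printed for the member near Zfp438. The values of 1 of the 10 strongest WT members are not reported here. Counting CpG sites and other motifs within 100 bp of the summit, and splitting by width, was chosen after seeing the data.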

Additional observations from a re-analysis of the deposited data

How the results depend on the processing

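Of 89 alternative values 56 stayed within the counting interval of the reported value and 33 moved out of it. The WT members per Tet2 KO member depended most on the threshold on peaks, at 15.8 when both lists were limited to −log10 q from 5 upward, 54.8 from 10 upward and 13.3 when limited to fold values from 5 upward. Under those 3 thresholds the share of WT members with a Tet2 KO peak was 6.03%, 1.79% and 7.3%, that of the other distal WT peaks 7.26%, 2.54% and 8.46%, and that of Tet2 KO members with a WT peak 99.6%, 100% and 99.4%. AP-1-only peaks were 28.7% of distal peaks in WT and 20.1% in Tet2 KO with −log10 q from 10 upward, and 24.0% in Tet2 KO with the fold threshold. With 3000 bp on either side of a start left out they were 27.4% in WT.

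Excluding any CANNTG left 7.9% and 7.08% of distal peaks, of which 46.6% and 43.5% had a TRE within 25 bp of the summit and 6.17% of the WT ones had a Tet2 KO peak. Requiring 50% of each peak gave 6.78% of WT members, 7.75% of the other distal WT peaks and 72.3% of Tet2 KO members, and requiring the summit inside the other peak gave 10.3% of the other distal peaks. Weighted to the fold enrichment of the members, the others had 13.2%. In each of these settings the members had a lower share than the other distal WT peaks counted as 1 group. With motifs read near the summit the shares were 10.1% (9.29 to 11.0%) and 11.3% (10.8 to 11.8%), with overlapping intervals. The intervals also overlapped with 50% of each peak, with −log10 q from 10 upward and with the fold threshold. Split by motif in the main setting, peaks with neither motif had a lower share than the members, at 7.58% (6.91 to 8.31%) against 9.65% (8.84 to 10.5%).

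Within 100 bp of the summit, chosen after seeing the data, the overlap share was 8.38% with no CpG site, 12.5% with 8 or more, 9.9% with RUNX, 9.88% with TEAD, 9.95% with CEBP and 15.1% with the GC box. There peaks with both motifs had 13.9% and those with neither 10.7%. No paired analysis was possible because only 1 list per genotype was analysed and neither carries a replicate number, and for the same reason no replicate could be left out. Every count of peaks lost is limited by library depth, the unlisted peak numbers and the unlike cutoffs of the 2 lists. The 2.13 times higher background of the Tet2 KO library limits these counts too.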
